A study of Mus musculus with 15 samples.

Results

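The iron handling genes of the mouse kidney were examined as a set of 10 genes, namely Tfrc, Trf, Fth1, Ftl1, Slc40a1, Slc11a2, Ireb2, Aco1, Hfe and Cp, out of 33058 genes in the table of transcript levels. The members were chosen by name from their known roles. The level of a gene is the sum of the FPKM (fragments counted per length of transcript and per size of library) of its transcripts, annotated or assembled on the same strand in the same gene, and the members had 81 of the 129029 such transcripts. All 10 genes were measured in all 15 mice. The mice were male C57BL/6 animals (C57BL/6J in the study's methods), 5 each at 3, 12 and 24 months of age, kept on standard chow and tap water, and RNA of the kidney was sequenced with 1 library per mouse. No mouse carried a transgene or was treated, so age is the only factor in the labels. Mice are named here by age and by the number in their labels.

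Iron circulates bound to transferrin (Trf) and enters cells through the transferrin receptor (Tfrc), and the divalent metal transporter Slc11a2 (DMT1) carries it across membranes. Cells store iron in ferritin, a shell of heavy (Fth1) and light (Ftl1) chains, and release it through ferroportin (Slc40a1), after which the ferroxidase ceruloplasmin (Cp) oxidizes it for loading onto transferrin. The iron regulatory proteins Aco1 (IRP1, which is also a cytosolic aconitase) and Ireb2 (IRP2) bind hairpins called iron-responsive elements (IREs) when iron is scarce. An IRE before the coding region then blocks translation, and IREs after it protect the mRNA from decay. In the kidney, filtered iron is taken back by tubule cells.

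The IREs of the members are shown because they tie the genes together and because they bear on how an mRNA level can be read: for an IRE in the 5′ UTR, iron is known to act mainly on translation, which these data do not measure. The search used a C, any 5 bases and then the loop letters CAGTGN on the sense strand of the UTRs of 21877 mouse genes (58797 transcripts, GENCODE M21, GRCm38), with 5 bases on either side of the loop required to pair, G with T allowed. Such a site was found in the 5′ UTR of 31 genes (0.142%), of which 3 were members, and in the 3′ UTR of 129 genes (0.590%), of which 1 was a member. The letters alone, without pairing, were common, in 11.5% of genes in the 5′ UTR and 34.4% in the 3′ UTR. When 1 unpaired base was allowed on the 3′ side of the stem, as a looser search, 81 genes (0.370%) had a site in the 5′ UTR, with no further member. In the 3′ UTR it gave 357 genes (1.63%), and Slc11a2 joined Tfrc. In the sites below the capitals mark the unpaired C and the loop letters CAGTGN, and each site is given 5′ to 3′ on the gene's strand.
Fth1, 5′ UTR, chr19:9982732-9982760, plus strand: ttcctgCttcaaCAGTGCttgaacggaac
Ftl1, 5′ UTR, chr7:45459779-45459807, minus strand: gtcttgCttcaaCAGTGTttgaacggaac
Slc40a1, 5′ UTR, chr1:45925465-45925493, minus strand: caacttCagctaCAGTGTtagctaagttt
Tfrc, 3′ UTR, chr16:32631219-32631247, plus strand: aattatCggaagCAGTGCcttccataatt
Tfrc, 3′ UTR, chr16:32631598-32631626, plus strand: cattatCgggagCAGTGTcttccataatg
Tfrc, 3′ UTR, chr16:32631663-32631691, plus strand: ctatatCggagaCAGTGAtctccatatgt
Tfrc, 3′ UTR, chr16:32631710-32631738, plus strand: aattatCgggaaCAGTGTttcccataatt
Slc11a2, 3′ UTR, chr15:100395153-100395181, minus strand, with 1 unpaired base: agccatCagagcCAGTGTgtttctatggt
The Fth1 and Ftl1 sites share the same upper stem, and the 4 Tfrc sites lie within one 3′ UTR. A match is a description of the sequence and was not tested for binding. The search used the form of known IREs and the members were chosen from their known roles, so the counts of members are not a test of enrichment. In the first 50 transcribed bases of RefSeq start windows the letters were in 492 of 27025 genes (1.82%) and in 0 of the 7 members with a window, which says only that the letters are not in those bases.

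The libraries had between 5.03 and 6.13 Gb of aligned bases at 3 months, 5.84 to 8.03 Gb at 12 months and 6.07 to 7.33 Gb at 24 months. All 39 marker genes of 12 kidney and blood cell types were detected, with proximal tubule markers summing to between 1406 and 2149 FPKM per mouse. In whole kidney RNA, fewer cells of a type and less RNA per cell cannot be told apart. Of the 39 markers, 6 were higher and 1 was lower at 24 than at 3 months at an unadjusted limma p under 0.05, beside 11.4% of all genes higher and 3.47% lower, among them Cd79a and Jchain of B and plasma cells and, lower, the proximal tubule gene Slc5a2.

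None of the 10 genes differed between ages after adjustment over all genes (limma, Benjamini-Hochberg adjusted p under 0.05), and in each comparison 1 of 10 had an unadjusted p under 0.05. At 24 against 3 months this was Trf, which was higher, while 14.9% of all 31755 genes tested passed the same threshold. Between 12 and 3 months it was Hfe, higher at 12 months, against 14.3% of all genes. At 24 against 12 months it was Tfrc, which was lower, against 6.43% of all genes. Among genes with a mean FPKM of at least 1, as all members had, the shares were 18.7%, 18.4% and 8.47% in the same order. The members' share of 10% was therefore below or near the background in each comparison. With an absolute log2 fold change above 1 required as well, 0 members and 0.523%, 0.499% and 0.17% of genes passed at 24 against 3, 12 against 3 and 24 against 12 months. After adjustment 1.22% of genes passed at 24 against 3 months, 0.25% at 12 against 3 months and 0.0031% (1 gene) at 24 against 12 months. No member had ages that did not overlap in any comparison. The share of all genes or transcripts without overlap is not given here, so a lack of overlap has no background beside it. The median log2 fold change of the 10 was -0.02, 0.10 and -0.01 in the 3 comparisons, beside 0.02, 0.02 and -0.0013 over all genes. The median size of their change was 0.21 on the log2 scale at 24 against 3 months, beside 0.18 for genes with a mean FPKM of at least 1. In that comparison the 95% intervals of all 10 lay within a log2 fold change of 1 either way, and for 5 genes the interval lay within 1.5-fold. Fold changes are on the log2(FPKM + 1) scale, which understates changes of low genes.

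**Figure D1:**
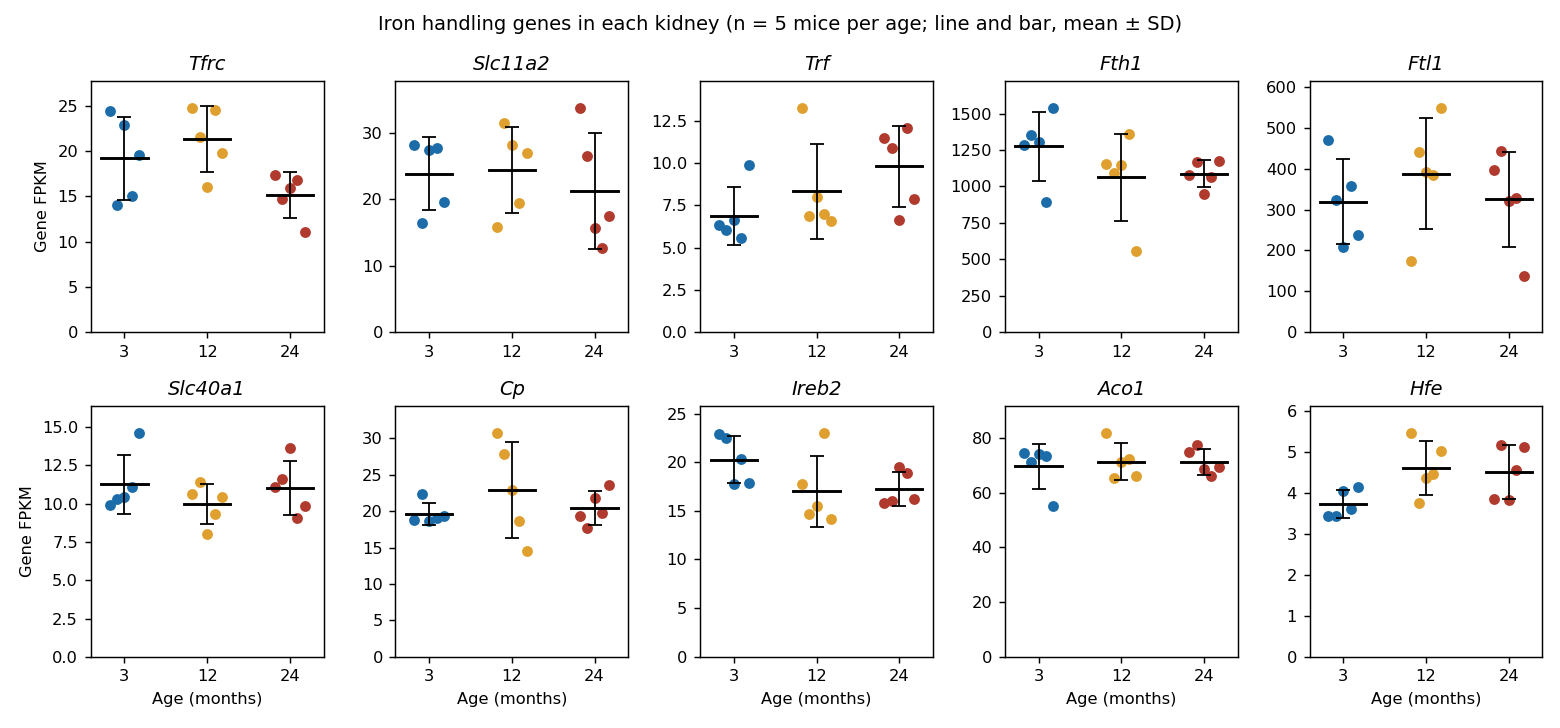
Gene FPKM of each of the 10 iron handling genes (vertical axes, each starting at 0) by age in months (horizontal axis), with 1 point per mouse, a line at the mean and bars of 1 SD (n = 5). The ages overlap in every panel; Trf at 24 months, Hfe at 12 months and Tfrc at 24 months are the groups named in the comparisons.

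FPKM depends on how each library is scaled. In 12- against 3-month kidneys the median log2 fold change of genes with a mean FPKM of at least 1 was 0.08 as deposited and -0.04 after median-of-ratios scaling, and at 24 against 3 months it was 0.05 and -0.04. The library factors of this scaling ran from 0.915 to 0.985 at 3 months, 1.03 to 1.11 at 12 months and 1.01 to 1.07 at 24 months. Those of the 3-month mice thus did not overlap those of older mice, so scaling and age cannot be told apart in comparisons with 3 months. Relative to the median of the deposited values, the change of Trf at 24 against 3 months was 0.39, that of Hfe at 12 against 3 months 0.16 and that of Tfrc at 24 against 12 months -0.44 on the log2 scale.

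The levels of the 10 genes spanned more than 2 orders of magnitude, compared per length in FPKM. Averaged over the 15 mice, Fth1 was at 1141 FPKM, the sixth highest of all genes, and Ftl1 at 344 FPKM. Aco1 followed at 70.8 FPKM, with Slc11a2 at 23.2, Cp at 21.02, Tfrc at 18.6 and Ireb2 at 18.2 FPKM. These last 4 overlapped one another across mice and their order is within that spread. Slc40a1 at 10.8 and Trf at 8.35 FPKM also overlapped across mice, and Hfe was lowest at 4.28 FPKM. The spread differed as well. Aco1 had a coefficient of variation of 8.81% over the 15 mice, while the median of the 462 genes within 1.5-fold of its level was 18.9%. Ftl1, at 33.5%, varied more than the median of its 48 neighbours in level (20.4%), as did Trf (29.95% beside 19.2%) and Slc11a2 (28.8% beside 17.3%).

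Tfrc, the receptor that takes up transferrin-bound iron, lies on chromosome 16 (32608920 to 32632846, plus strand). At 3 months its FPKM was 24.4, 14.1, 22.9, 15.1 and 19.5 in mice 5 to 9. In the 12-month mice it was 24.8, 21.5, 16.1, 24.6 and 19.8 in mice 17 to 21. At 24 months it was 17.4, 14.8, 15.9, 16.8 and 11.04 in mice 31 to 35. All 5 of the 24-month mice were below the 12-month median of 21.5 and below the 3-month median of 19.5, but the ages overlapped. The mean was 15.2 ± 2.51 FPKM (SD, n = 5) at 24 months and 21.3 ± 3.62 at 12 months, a log2 fold change of -0.47 (SE 0.15, limma p = 0.0102, adjusted p = 0.700, exact permutation p = 0.0238). Against 3 months the change was -0.31 (SE 0.17, limma adjusted p = 0.469). From annotated transcripts alone, the 24- against 12-month value was -0.39 (limma adjusted p = 0.835), past neither threshold.

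Tfrc followed the erythroid markers. Red cell precursors and reticulocytes are known for high transferrin receptor, and the summed FPKM of 5 erythroid marker genes (4 globin genes and Alas2, none of them at 0 in all mice) ranged from 486 to 1389.7 at 3 months, 600.3 to 1068 at 12 months and 260.2 to 1033 at 24 months. On the log2(FPKM + 1) scale over 15 mice, Pearson's r was 0.80 (permutation p = 0.00028, adjusted p = 0.00252 over 9 relations) and Spearman's rho was 0.71 (permutation p = 0.00377, adjusted p = 0.0202). With each age centred, r was 0.81 (permutation p = 0.00272, adjusted p = 0.0245), so the relation held among mice of the same age, and without the 2 mice farthest from the median marker level r was 0.74. The 9 relations, of Tfrc, Trf and Hfe with erythroid, macrophage and B and plasma cell markers, were chosen after values had been seen. None of the 5 erythroid markers passed the unadjusted limma threshold in any age comparison, and their median log2 fold change at 24 against 12 months was -0.48, beside -0.0013 over all genes. Their sum is mostly globin mRNA, since Alas2 averaged 8.13 FPKM and the 4 globin genes 118 to 344 FPKM each. The part of these markers in the Tfrc difference was not tested. The 2 genes outside the iron lists whose levels over the 15 mice were most like Tfrc, of 13392 genes, were Mkrn1 (r = 0.89) and Ndufa10 (r = 0.83).

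**Figure D2:**
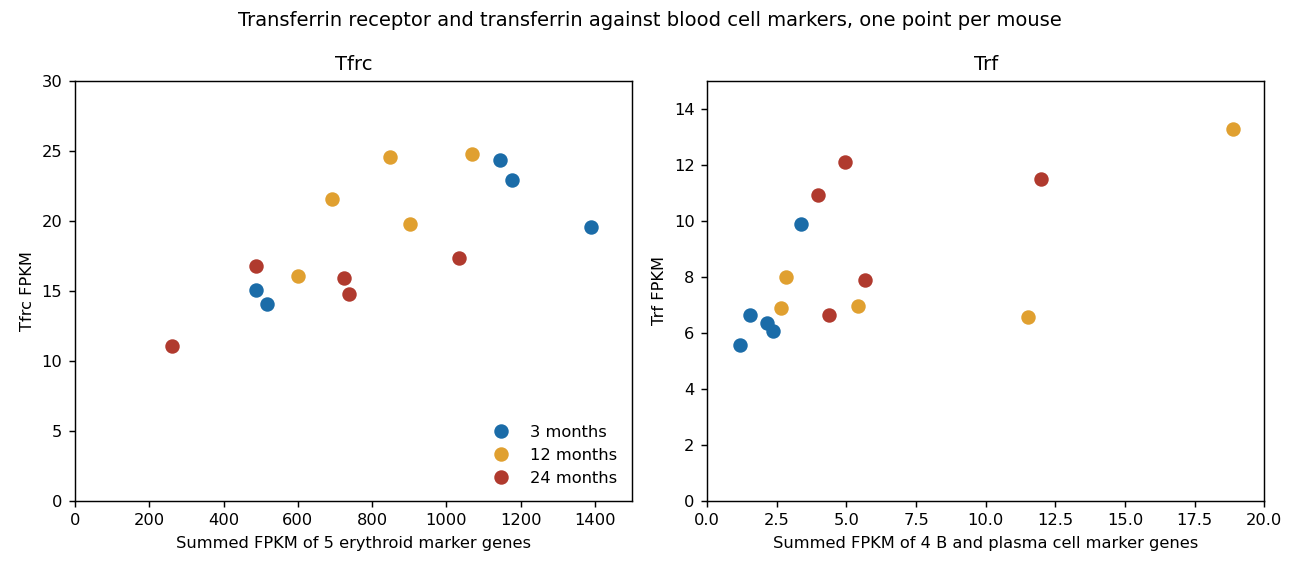
Left, Tfrc FPKM against the summed FPKM of 5 erythroid marker genes. Right, Trf FPKM against the summed FPKM of 4 B and plasma cell marker genes. Each point is 1 mouse, coloured by age. Tfrc was lowest, at 11.04 FPKM, in the 24-month mouse with the lowest erythroid sum, 260.2 FPKM. Trf was highest, at 13.3 FPKM, in the 12-month mouse with the highest B and plasma cell sum, 18.9 FPKM.

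Trf encodes transferrin, the carrier of iron in plasma, made mostly in the liver, and lies on chromosome 9 (103204001 to 103230444, minus strand). At 3 months its FPKM was 6.36, 6.05, 6.63, 5.57 and 9.88 in mice 5 to 9. The 12-month values were 13.3, 6.89, 7.996, 6.98 and 6.58 in mice 17 to 21. At 24 months it was 11.5, 10.9, 6.62, 12.1 and 7.91 in mice 31 to 35. The 3- and 12-month groups each held a single high mouse, and 3 of the 5 old mice were at 10.9 FPKM or more. The mean was 9.81 ± 2.40 FPKM (SD, n = 5) at 24 months and 6.90 ± 1.71 at 3 months, a log2 fold change of 0.45 (SE 0.19, limma p = 0.0390, adjusted p = 0.301, exact permutation p = 0.0635). All 5 of the 24-month mice were above the 3-month median of 6.36 FPKM. The unadjusted limma threshold was passed in 10 of 18 alternatives, not after median-of-ratios scaling (0.34, adjusted p = 0.449), and was lost on leaving out any of 7 mice (5, 6, 7, 8, 31, 32 or 34), with log2 fold changes between 0.37 and 0.57 without 1 mouse. At 12 months the mean was 8.34 ± 2.81 FPKM, and neither difference from 12 months passed the threshold (limma adjusted p = 0.655 against 3 months and adjusted p = 0.820 for 24 against 12 months).

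The Trf locus also holds Gm20425, a read-through gene on the same strand with a mean of 4.07 FPKM. How reads of shared exons were divided between both genes is not given in the sources used here. The correlation of Trf and Gm20425 over the mice did not pass the threshold (r = 0.15, permutation p = 0.611, rho = 0.09, permutation p = 0.742, and r = 0.15 without the 2 mice farthest from the median). Their sum was 10.3 ± 3.05, 12.2 ± 3.52 and 14.8 ± 1.87 FPKM (SD, n = 5) at 3, 12 and 24 months. For the sum, an alternative chosen after seeing the data, the log2 fold change at 24 against 3 months was 0.50 (SE 0.17, limma adjusted p = 0.208). Trf was correlated with B and plasma cell markers over the 15 mice at r = 0.63 (permutation p = 0.0130, adjusted p = 0.0389, rho = 0.64, permutation p = 0.0126). With ages centred r was 0.54 (permutation p = 0.0639), and without the 2 mice farthest from the median marker level it was 0.31, so the size of r depended on those mice. The summed level of these 4 markers was 1.17 to 3.35 FPKM at 3 months, 2.65 to 18.9 at 12 months and 3.97 to 12.0 at 24 months. Most of the sum was Jchain, at a mean of 4.76 FPKM, beside 0.433 for Cd79a, 0.181 for Ms4a1 and 0.143 for Mzb1. The part of these cells in the Trf difference was not tested. The genes most like Trf over the 15 mice were Abhd12 (r = 0.84), Apob (r = 0.82) and Mocs2 (r = 0.80).

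**Figure D3:**
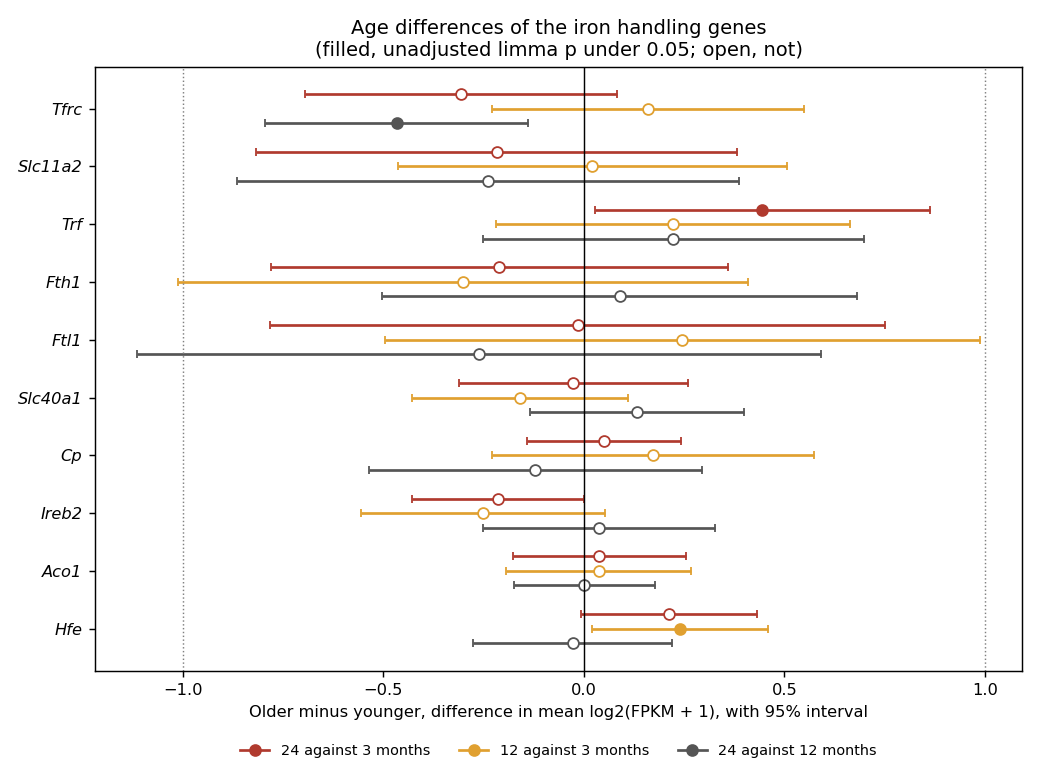
Difference in mean log2(FPKM + 1), older minus younger, for each gene (rows) in the 3 age comparisons (colours), with 95% intervals from limma. Filled points had an unadjusted p under 0.05. Trf at 24 against 3 months (0.45), Hfe at 12 against 3 months (0.24) and Tfrc at 24 against 12 months (-0.47) are filled, and dotted lines mark a log2 fold change of 1 either way.

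Slc11a2, the ferrous iron transporter (chromosome 15, 100387824 to 100425072, minus strand), varied widely within each age. Its FPKM was 28.1, 16.4, 27.4, 27.8 and 19.6 at 3 months. At 12 months it stood at 15.9, 31.5, 28.2, 19.5 and 27.0, and at 24 months at 33.8, 26.5, 15.7, 12.6 and 17.5. Both the highest and the lowest mouse of all 15 were 24 months old. The log2 fold change at 24 against 3 months was -0.22 with a 95% interval from -0.82 to 0.38 (limma adjusted p = 0.723).

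Slc11a2 is known for mRNAs with and without an IRE, which use different 3′ ends, and the site printed above lies only in the UTR of the annotated transcript that ends nearer (ENSMUST00000138843). Its 18 transcripts were therefore grouped, after values had been seen, into 7 that end after the IRE-like site, 5 that reach the distal 3′ end and 6 others. The grouping used the position of the 3′ end alone. Exons of the assembled isoforms were not checked for the site, so distal isoforms may hold it too. The IRE-side transcripts summed to 10.4 ± 5.47, 11.5 ± 5.99 and 10.0 ± 5.81 FPKM (SD, n = 5) at 3, 12 and 24 months. Those of the distal end summed to 8.37 ± 1.20, 7.96 ± 1.39 and 6.15 ± 1.54 FPKM. In single mice the distal end stood at 7.47, 10.2, 8.34, 7.12 and 8.78 FPKM at 3 months and at 8.12, 7.13, 4.25, 6.11 and 5.12 FPKM at 24 months. The old mice were lower on the whole, with an overlap between 7.12 and 8.12 FPKM (exact permutation p = 0.0397, adjusted p = 0.357 over 9 tests, 2-sided). Most of this drop lay in the assembled isoform MSTRG.13265.4, with means of 2.34 FPKM at 3 months and 0.405 at 24 months. The annotated distal transcript ENSMUST00000023774 was at 2.93 and 3.07 FPKM. The assembled MSTRG.13265.3 was at 1.69 and 1.28, MSTRG.13265.1 at 0.738 and 0.539, and MSTRG.13265.2 at 0.682 and 0.856 FPKM. For the IRE-side sum the log2 fold change was -0.02 (exact permutation p = 0.992). Most of the variation between mice lay in the IRE-side transcripts, from 3.23 to 19.7 FPKM over the 15 mice, against 4.25 to 10.2 FPKM for the distal end. Higd1c, on the opposite strand, has assembled transcripts that reach into the distal end (mean 6.06 FPKM), and whether strand was used in assigning reads is not given in the sources used here.

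**Figure D4:**
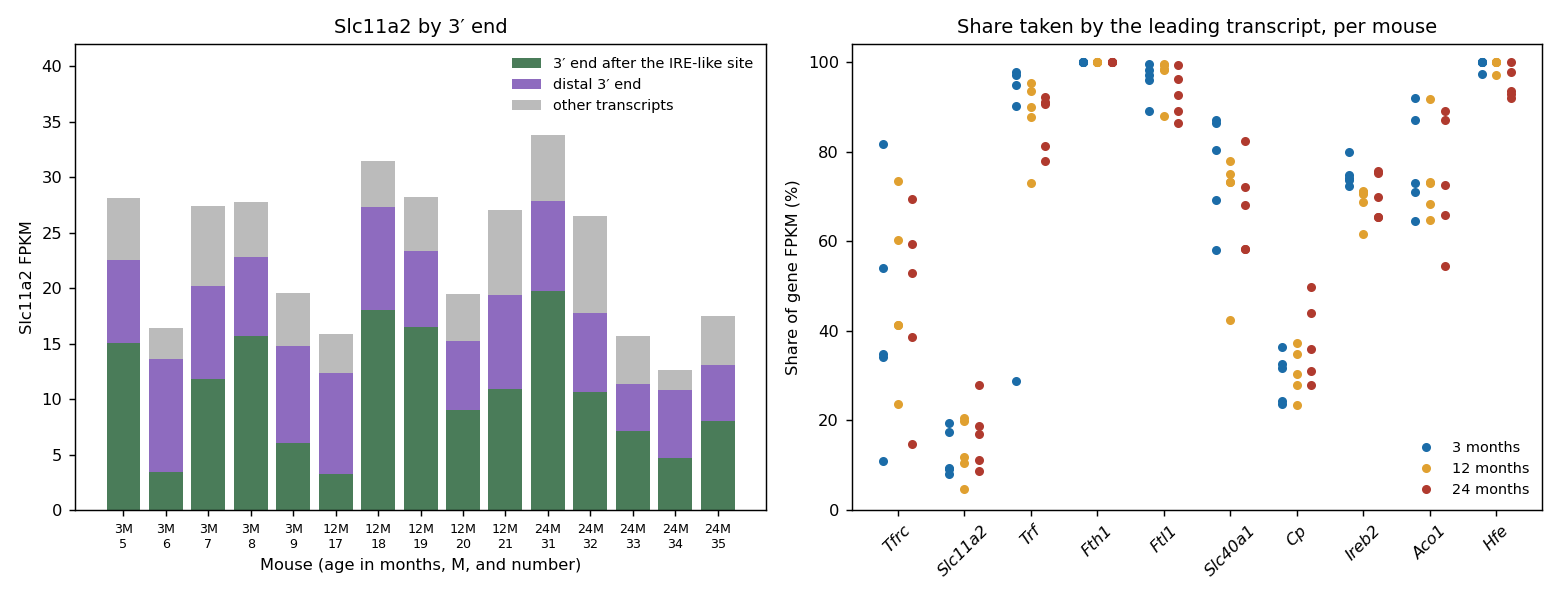
Left, FPKM of Slc11a2 in each of the 15 mice, stacked by transcripts that end after the IRE-like site, at the distal 3′ end, or elsewhere. Right, the share of each gene's FPKM in its leading transcript, 1 point per mouse. The share was 100% in all mice for Fth1 and from 11.0045% to 81.6% for Tfrc.

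The ferritin chains were the most abundant members. Fth1, the ferroxidase chain (chromosome 19, 9982703 to 9985092, plus strand), stood at 1286, 1353, 1305, 890.3 and 1539 FPKM at 3 months. In the 12-month mice it was 1155, 1091, 1146, 1357 and 559 FPKM, and at 24 months 1082, 1169.8, 947, 1062 and 1176 FPKM. All 5 of the 24-month mice were below the 3-month median of 1305 FPKM, but mouse 8 of the 3-month group was lower than all of them. The log2 fold change at 24 against 3 months was -0.21 (95% interval -0.78 to 0.36, limma adjusted p = 0.717, exact permutation p = 0.183). At 12 against 3 months it was -0.30 with an interval reaching -1.01, and without mouse 21, whose 559 FPKM was the lowest value, it was -0.08.

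Ftl1, the light chain (chromosome 7, 45457944 to 45459884, minus strand), had the widest relative spread. It stood at 470.3, 324, 209, 358 and 237 FPKM at 3 months. The 12-month values were 174, 439.9, 391, 386 and 549 FPKM, and at 24 months 398, 444, 320.2, 328 and 138 FPKM. The ages overlapped over nearly their whole range, and the log2 fold change at 24 against 3 months was -0.02 (95% interval -0.78 to 0.75, limma adjusted p = 0.986). Gm10252, annotated on the opposite strand of the first exon side of Ftl1 (45459469 to 45460300), had a mean of 177 FPKM. The correlation of Ftl1 and Gm10252 did not pass the threshold (r = 0.09, permutation p = 0.743, rho = 0.19, permutation p = 0.496, r = -0.08 without the 2 mice farthest from the median Ftl1). Adding Gm10252 to Ftl1 gave means of 511, 562 and 489.995 FPKM with SDs of 101, 160.1 and 138 (n = 5). The pseudogene Ftl1-ps1, which may share reads with Ftl1, had a mean of 6.47 FPKM. Both ferritin mRNAs carry the 5′ UTR sites shown above.

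Of the genes of iron export, ferroportin Slc40a1 (chromosome 1, 45907479 to 45926523, minus strand) stood at 9.91, 10.3, 10.4, 11.1 and 14.7 FPKM at 3 months. At 12 months it stood at 10.6, 11.4, 7.997, 9.35 and 10.5 FPKM, and at 24 months at 11.1, 11.6, 13.6, 9.05 and 9.86 FPKM. The log2 fold change at 24 against 3 months was -0.03 (95% interval -0.31 to 0.26, limma adjusted p = 0.937). The 12-month mean of 9.97 ± 1.32 FPKM (SD, n = 5) was the lowest, at a log2 fold change of -0.16 against 3 months (limma adjusted p = 0.597), and after median-of-ratios scaling this was -0.28 (limma adjusted p = 0.308).

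Ceruloplasmin, Cp, a copper ferroxidase (chromosome 3, 19956947 to 20009823, plus strand), stood at 18.8, 22.3, 18.6, 19.1 and 19.4 FPKM at 3 months. In the 12-month mice it was 30.8, 27.9, 22.9, 18.7 and 14.6 FPKM, and at 24 months 19.4, 17.6, 21.9, 19.7 and 23.7 FPKM. The 3 means were close (19.6, 22.97 and 20.4 FPKM), but the 12-month mice covered more than the range of both other ages, with an SD of 6.60 FPKM beside 1.53 at 3 months and 2.34 at 24 months (n = 5). The log2 fold change at 24 against 3 months was 0.05 (95% interval -0.14 to 0.24, limma adjusted p = 0.7999). Hps3 overlaps Cp on the opposite strand, with a mean of 12.0 FPKM.

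Of the regulators, Ireb2 (chromosome 9, 54863781 to 54912790, plus strand) stood at 22.9, 22.5, 17.7, 20.3 and 17.9 FPKM at 3 months. The 12-month values were 17.7, 14.7, 15.5, 23.04 and 14.2 FPKM, and at 24 months 15.8, 16.04, 19.5, 18.9 and 16.2 FPKM. All 5 of the 24-month mice and 4 of the 5 12-month mice were below the 3-month median of 20.3 FPKM. The means were 20.2 ± 2.43, 17.02 ± 3.63 and 17.3 ± 1.75 FPKM (SD, n = 5), and the log2 fold change was -0.21 at 24 against 3 months (SE 0.10, limma adjusted p = 0.339) and -0.25 at 12 against 3 months (limma adjusted p = 0.449). Median-of-ratios scaling brought both under the unadjusted threshold, at -0.32 (limma adjusted p = 0.199) and -0.38 (limma adjusted p = 0.302), as did annotated transcripts alone, at -0.29 (limma adjusted p = 0.2395) and -0.33 (limma adjusted p = 0.323). The leading Ireb2 transcript, ENSMUST00000034843 with 71.5% of the gene's FPKM, was at 15.1 ± 1.42 FPKM at 3 months and 12.2 ± 1.605 FPKM at 24 months (log2 fold change -0.30, limma adjusted p = 0.585, exact permutation p = 0.0238) and stood at 11.7 ± 2.71 FPKM at 12 months (log2 fold change -0.37 against 3 months, limma adjusted p = 0.653).

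Aco1 (chromosome 4, 40143081 to 40198338, plus strand) was the steadiest member. It stood at 74.5, 71.3, 74.0, 73.5 and 55.3 FPKM at 3 months. At 12 months it stood at 82.0, 65.3, 71.2, 72.4 and 66.0 FPKM, and at 24 months at 75.1, 77.4, 68.5, 66.2 and 69.5 FPKM. Mouse 9 of the 3-month group was the single low value. The log2 fold change was 0.04 at 24 against 3 months (95% interval -0.18 to 0.25, limma adjusted p = 0.866) and 0.0014 at 24 against 12 months (95% interval -0.17 to 0.18). The sign of such small values changed with the scaling.

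Hfe, an MHC class I-like protein that binds the transferrin receptor and takes part in hepcidin control (chromosome 13, 23703840 to 23710854, minus strand), stood at 3.42, 3.44, 4.05, 3.60 and 4.15 FPKM at 3 months. In the 12-month mice it was 5.47, 3.74, 4.37, 4.45 and 5.02 FPKM, and at 24 months 3.84, 5.17, 3.82, 4.56 and 5.12 FPKM. All 5 mice of each older age were above the 3-month median of 3.60 FPKM, although both older ages reached into the 3-month range. The means were 3.73 ± 0.344, 4.61 ± 0.659 and 4.50 ± 0.658 FPKM (SD, n = 5). At 12 against 3 months the log2 fold change was 0.24 (SE 0.10, limma p = 0.0351, adjusted p = 0.308, exact permutation p = 0.0397) and at 24 against 3 months 0.21 (SE 0.10, limma p = 0.0573, adjusted p = 0.357). After median-of-ratios scaling both were smaller, at 0.13 (limma adjusted p = 0.584) and 0.12 (adjusted p = 0.654), and the 12-month call was also lost in TPM and on leaving out mouse 5, 6, 8, 17, 20 or 21, with log2 fold changes between 0.19 and 0.30 without 1 mouse. Hfe was correlated with the B and plasma cell markers over the 15 mice (r = 0.64, permutation p = 0.00916, adjusted p = 0.0389, rho = 0.70, permutation p = 0.00450, and r = 0.73 without the 2 mice farthest from the median marker level), while with ages centred r was 0.40 (permutation p = 0.227). Within single ages r was 0.25 at 3 months, 0.94 at 12 months and -0.50 at 24 months (n = 5 mice each), so its sign differed between ages. As given for Trf, this marker sum is mostly Jchain. The part of these cells in the Hfe difference was not tested. The genes most like Hfe were Unc93b1, Slc22a15 and Trim34a (r = 0.84 each).

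No correlation between members across mice passed adjustment. Among the 45 pairs of members, 1 had an unadjusted permutation p under 0.05 by Pearson's r, whose median was -0.0089. Spearman's rho gave 2 such pairs. With ages centred r gave 2 others, Ftl1 with Cp and Slc11a2 with Ireb2. The pair by Pearson's r was Trf and Hfe (r = 0.58, permutation p = 0.0270, adjusted p = 0.798, rho = 0.69, permutation p = 0.00607). For this pair r was 0.47 when ages were centred (permutation p = 0.117) and 0.42 without the 2 mice farthest from the median Trf. For the ferritin chains r was -0.41 (permutation p = 0.134, adjusted p = 0.807, rho = -0.33, permutation p = 0.232) and -0.09 without the 2 mice farthest from the median Fth1, and neither value passed the threshold.

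At the level of transcripts, 7 of 80 member transcripts tested had an unadjusted limma p under 0.05 at 24 against 3 months, beside 7.9% of all transcripts tested and 12.7% of those with a mean FPKM of at least 1. Between 12 and 3 months there were 4 of 79 (background 7.46%) and at 24 against 12 months 3 of 80 (background 4.47%). None passed adjustment. With 1 library estimate per transcript, StringTie divides the reads of a gene among its transcripts, so these are not independent of one another. Among transcripts with a mean of at least 1 FPKM, the main Trf transcript ENSMUST00000035158, with 84.6% of the gene's FPKM, went from 5.24 ± 1.40 to 8.51 ± 2.21 FPKM at 24 against 3 months (log2 fold change 0.61, limma adjusted p = 0.554, exact permutation p = 0.0397). In the 3-month mouse 9 it held 28.9% of the gene, against 73.0% to 97.7% in the other 14 mice. The short Cp transcript ENSMUST00000125994, with 6.11% of the gene's FPKM, stood between 1.20 and 1.87 FPKM at 3 months and between 0.387 and 1.13 FPKM at 24 months, with no overlap (log2 fold change -0.50, limma adjusted p = 0.426, exact permutation p = 0.00794, the smallest possible), while the log2 fold change of the gene sum was 0.05. For the leading Cp transcript, ENSMUST00000003714, it was 0.33 (limma adjusted p = 0.713). The Cp transcript ENSMUST00000131454, at a mean of 0.661 FPKM, was also lower without overlap (log2 fold change -0.79, limma adjusted p = 0.226). No background for a lack of overlap is given here. The assembled Slc11a2 isoform MSTRG.13265.4 stood between 0 and 4.51 FPKM at 3 months and between 0 and 1.91 FPKM at 24 months (log2 fold change -1.20, limma adjusted p = 0.585). It is part of the distal-end sum given above, so the 2 results are not separate. The assembled Tfrc isoform MSTRG.13980.2, listed at 0 in 3 of the 15 mice, stood between 0 and 8.65 FPKM at 12 months and between 0 and 2.09 FPKM at 24 months (log2 fold change -1.50, limma adjusted p = 0.838).

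The leading transcripts of the other members were ENSMUST00000025563 for Fth1 (100% of the gene), ENSMUST00000091706 for Hfe (98.1%), ENSMUST00000094434 for Ftl1 (95.5%), ENSMUST00000102973 for Aco1 (74.7%), ENSMUST00000027137 for Slc40a1 (70.4%), ENSMUST00000023486 for Tfrc (48.5%), ENSMUST00000003714 for Cp (32.6%) and ENSMUST00000023774 for Slc11a2 (13.3%). The leading Tfrc transcript, whose 3′ UTR holds the 4 sites, ranged from 11.0045% to 81.6% of the gene's FPKM in single mice. By position, 2 annotated Tfrc transcripts span each site, and assembled isoforms reach past them. This range is therefore not the share of Tfrc mRNA that carries the sites.

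The deposited circular RNA table listed 13 circular RNAs of 4 members, namely 7 of Ireb2, 3 of Tfrc, 2 of Aco1 and 1 of Slc11a2, of which 3 were intronic. None had an unadjusted edgeR p under 0.05 at 24 against 3 months, where 28.8% of all circular RNAs tested did, or at 12 against 3 months (background 23.7%), and none passed adjustment by edgeR or DESeq2 at 24 against 3 months, where 13.3% of all circular RNAs did by edgeR. By edgeR none passed adjustment in the other comparisons either (background 6.63% at 12 against 3 months and 0.738% at 24 against 12 months). At 24 against 12 months 2 of 13 had an unadjusted edgeR p under 0.05 (background 16.9%), both of Tfrc: circRNA2528 with a log2 fold change of -0.54 (edgeR adjusted p = 0.177) and circRNA4055 at -0.36 (edgeR adjusted p = 0.254). These estimated counts appear to hold reads over the enclosed exons and not only the back-splice. The 3 Ireb2 circles with the same first base (chromosome 9, 54883897) had mean counts of 133, 368 and 409 for 4, 11 and 12 exons. A difference of a circle is then not independent of the linear gene. The mean estimated counts were 427 for circRNA4055 and 224 for circRNA1581 of Tfrc, 894 for circRNA9236 and 409 for circRNA1187 of Ireb2, 1196 for circRNA1911 and 63.5 for ciRNA399 of Aco1, and 1103 for circRNA1636 of Slc11a2.

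Of 61 other iron and heme genes in 7 lists by role, 57 were tested, and 4 (Hamp2, Ftmt, Flvcr1 and Flvcr2) were not analysed here. At 24 against 3 months 4 were higher and 5 were lower at an unadjusted limma p under 0.05, beside 11.4% of all genes higher and 3.47% lower, and none passed adjustment. Under 1 of 18 alternatives each, 3 did: Alas1 (adjusted p = 0.0362) and Slc39a14 (adjusted p = 0.0458) with all 15 mice in one limma fit, and Glrx5 (adjusted p = 0.00864) without mouse 7. Their median log2 fold change was -0.02, beside 0.02 over all genes. Between 12 and 3 months 1 was higher and 7 were lower at the older age (all genes 11.4% and 2.9%), and at 24 against 12 months 2 were higher and 2 were lower (3.07% and 3.36%). Among all genes with a mean FPKM of at least 1, 12.4% were higher and 6.35% lower at 24 against 3 months. The shares were 13.6% and 4.86% at 12 against 3 months, and 3.5% and 4.97% at 24 against 12 months.

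In the heme list 2 of 13 were lower at 24 than at 3 months and 0 were higher. Hmox1, the heme oxygenase that frees iron from heme, stood at 105.4, 39.5, 13.6, 12.4 and 22.4 FPKM at 3 months. The 12-month values were 6.45, 5.16, 13.2, 15.7 and 8.04 FPKM, and at 24 months 8.69, 9.91, 8.79, 10.3 and 10.2 FPKM. The 3-month mice were spread widely and all lay above the 24-month mice (log2 fold change -1.45, SE 0.51, limma adjusted p = 0.214), in the same direction and under the unadjusted threshold in 18 of 18 alternatives. Alas1, which starts heme synthesis outside red cells, stood at 86.7, 59.2, 84.7, 118.8 and 84.5 FPKM at 3 months and at 36.3, 64.2, 35.2, 53.8 and 49.7 FPKM at 24 months, with 1 overlap (log2 fold change -0.85, limma adjusted p = 0.0936, under the unadjusted threshold in 18 of 18 alternatives with adjusted p from 0.0362 to 0.179).

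In the list of uptake and reduction 1 of 10 passed, the zinc and iron transporter Slc39a14 (ZIP14), lower at 11.2 ± 1.94 against 17.3 ± 3.46 FPKM (SD, n = 5; log2 fold change -0.58, limma adjusted p = 0.107, with 0.0458 to 0.309 over 18 alternatives). Of export and the hepcidin axis, 2 of 8 passed: the ferroxidase Heph, lower at 3.07 ± 0.337 against 3.80 ± 0.419 FPKM (log2 fold change -0.24, limma adjusted p = 0.251), a call lost without mouse 7, 8, 31 or 34, and Hfe2 (hemojuvelin), which was near 0 at both ages (at most 0.0516 FPKM). Of storage, chaperones and control of the regulatory proteins, 1 of 6 passed, Ncoa4, the receptor that delivers ferritin to lysosomes, lower at 17.9 ± 2.74 against 25.7 ± 8.28 FPKM (log2 fold change -0.47, limma adjusted p = 0.289), a call that was lost without mouse 8, 9, 32 or 33 and from annotated transcripts alone.

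Of mitochondrial iron genes, 1 of 8 passed. Glrx5, a carrier of iron-sulfur clusters, was at 0.554, 2.54, 32.5, 2.74 and 2.14 FPKM at 3 months and at 35.1, 33.7, 30.7, 19.9 and 28.7 FPKM at 24 months (log2 fold change 2.69, limma adjusted p = 0.102, with 0.00864 to 0.185 over 18 alternatives). At 12 months it stood at 30.1, 0.328, 39.6, 3.21 and 37.0 FPKM, so single mice of 2 ages were either low or high, with none between 3.21 and 19.9 FPKM. Of scavenging genes, 2 of 8 passed, namely Lrp1, a receptor for heme-hemopexin, higher at 14.2 ± 1.46 against 11.7 ± 1.85 FPKM (log2 fold change 0.27, limma adjusted p = 0.320) but past the unadjusted threshold in only 8 of 18 alternatives, and Hpx, which was at most 0.261 FPKM in every mouse of both ages. The tubular protein uptake list had 0 of 4, and its members Lrp2 (megalin, mean 436 FPKM) and Dab2 (189.6 FPKM), with the heme list's transporter Abcg2 (189.3 FPKM), were the 3 most abundant of these genes. Lrp2 ranged from 415 to 606 FPKM at 3 months and from 373 to 563 FPKM at 24 months.

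**Figure D5:**
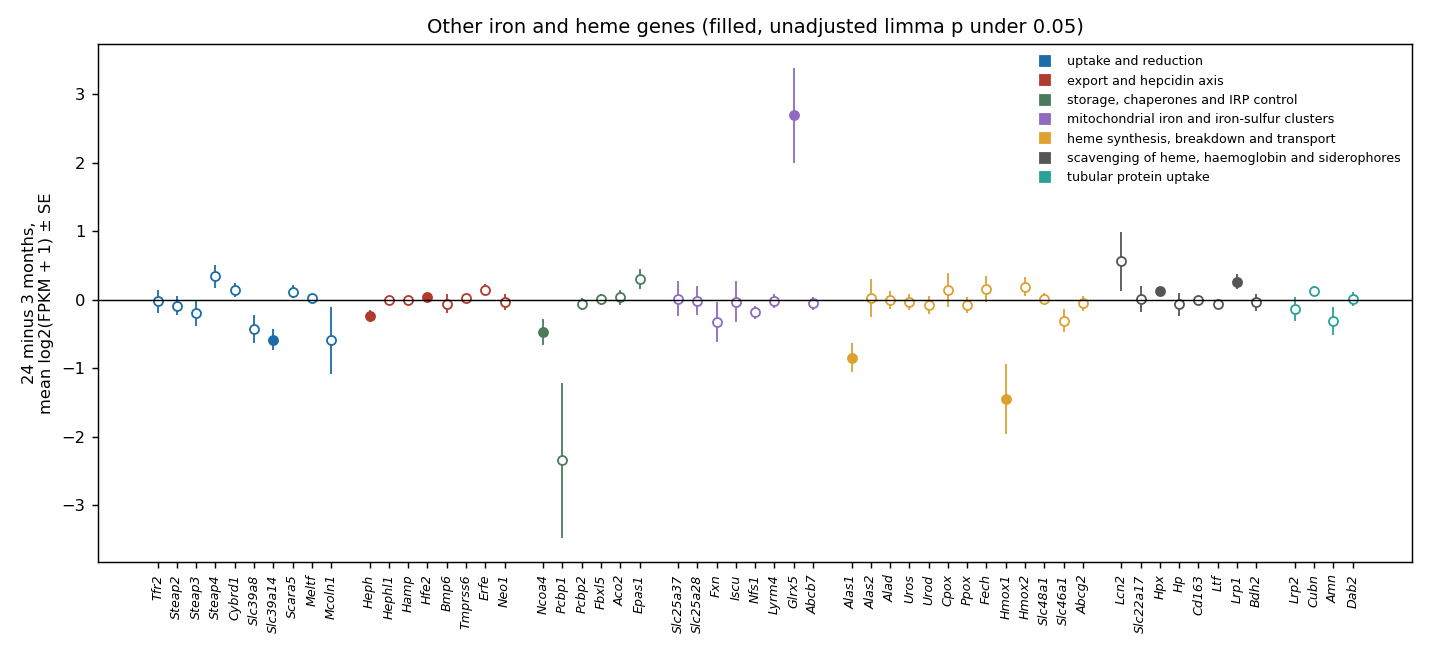
Difference in mean log2(FPKM + 1) between 24 and 3 months (vertical axis) for 57 other iron and heme genes, grouped and coloured by list, with bars of 1 SE. Filled points had an unadjusted limma p under 0.05. Of the filled points, Alas1 (-0.85) and Hmox1 (-1.45) lie below 0 and Glrx5 (2.69) above it, while most genes lie near 0. The lowest point is Pcbp1 (-2.34, SE 1.14), which is open.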

How the data were processed

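Kidney RNA of 15 mice was sequenced, and groups follow the age label, since titles begin with 3M at all ages. Reads had been trimmed by the authors (Cutadapt), aligned against GRCm38 and its Ensembl annotation (Bowtie2, HISAT2) and assembled (StringTie); the submitters' processing notes also name TopHat2. The deposited FPKM and mean coverage (used for aligned bases) were estimated by the authors per transcript. The labels describe removal of ribosomal RNA, the paper poly(A) selection. The deposited estimated counts of circular RNAs, 6974494 to 9889971 per mouse, were not whole for 83.6% to 94.6% of values and were rounded.

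FPKM keeps no counting error, so the precision rests on the spread between mice. The limma SEs, intervals and p-values use each gene's spread drawn toward a trend over all genes. They can therefore differ from the spread of that gene's own 5 mice per age, while the exact permutation test uses only the gene's own values. For Fth1 at 24 against 3 months limma gave p = 0.427 and the exact permutation test p = 0.183. Gene FPKM were summed over class codes =, c, j and o, and all genes above 0 in at least 1 of the 10 mice were fitted on log2(FPKM + 1), pseudocount 1, with limma 3.58.1 (R 4.3.3, trend = TRUE), using only both ages compared. Circular RNAs above 0 in at least 5 mice were tested with edgeR 4.0.16 (quasi-likelihood, TMM) and DESeq2 1.42.0 as alternative. Exact permutation tests used all 252 assignments, 2-sided (smallest p 0.00794), and correlations 100000 permutations. Both fits were tested on simulated data.

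The members, gene lists and cell markers were chosen with earlier results of these data known. Named were all members, their leading transcripts and those with a mean of at least 1 FPKM and p under 0.05, other iron genes with p under 0.05 at 24 against 3 months and the 3 most abundant, the 3 genes (2 for Tfrc) most like the member with the smallest p in each comparison, and the 2 most abundant circles of each host. Protein sequences were not used here. Some genes of these lists are not reported here, and the sums and counts leave them out.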

Additional observations from a re-analysis of the deposited data

Results flagged for a closer look

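Of 42 groups of 5 mice checked with Dixon's test, 5 held a value far from the other 4, where chance flags about 1 in 20 groups. The 3-month mouse 9 gave 3 of the 5. Its Trf was 9.88 FPKM (5.57 to 6.63 in the other 4 mice), its Slc40a1 was 14.7 FPKM (9.91 to 11.1) and its Aco1 was 55.3 FPKM (71.3 to 74.5). The 12-month mouse 17 had 13.3 FPKM of Trf (6.58 to 7.996 in the others). The 3-month mouse 6 had 22.3 FPKM of Cp (18.6 to 19.4 in the others). Without mouse 9, the log2 fold change at 24 against 3 months was 0.57 for Trf, 0.06 for Slc40a1 and -0.04 for Aco1.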

How the results depend on the processing

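No member passed adjustment in any comparison, and the count of 1 of 10 at an unadjusted limma p under 0.05 moved with the settings. At 24 against 3 months it was 2 in TPM, 2 after median-of-ratios scaling, 2 from annotated transcripts alone, 0 by the exact permutation test, 0 at an adjusted p under 0.05, 0 with an absolute log2 fold change above 1, and 0 to 3 without 1 mouse. It was 0 without mouse 5, 8 or 32 and 3 (Trf, Ireb2 and Hfe) without mouse 9 or 33. At 12 against 3 months it was 0 in TPM, 2 after median-of-ratios scaling, 2 from annotated transcripts, 0 after adjustment, 0 with the fold limit and 0 to 1 without 1 mouse, with 0 without mouse 5, 6, 8 or 17. At 24 against 12 months it was 0 from annotated transcripts, 0 after adjustment, 0 with the fold limit and 1 to 2 without 1 mouse, with 2 (Tfrc and Trf) without mouse 17. The unadjusted call moved to other members under some exclusions, to Tfrc without mouse 6, Hfe without mouse 31 and Ireb2 without mouse 7 or 34 at 24 against 3 months, and to Ireb2 without mouse 20 and Cp without mouse 21 at 12 against 3 months. The causes were not tested. Member transcripts at 24 against 3 months numbered 3 instead of 7 with a mean FPKM of at least 1, where fewer were tested, and 6 to 9 without 1 mouse. Circular RNAs of members at 24 against 3 months stayed at 0 after adjustment in all alternatives run, also without 1 mouse. The other iron genes stayed within 6 to 12. Lrp1 lost its unadjusted call with a mean FPKM of at least 1, after median-of-ratios scaling, with the robust variance prior, from annotated transcripts and without mouse 6, 7, 8, 31, 32 or 33.

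Log2 fold changes of members changed sign in 39 of 540 alternatives, in each case where the value as deposited had not been called. At 24 against 3 months these were Ftl1 in TPM (0.0043), Aco1 (-0.076) and Cp (-0.060) after median-of-ratios scaling and Aco1 from annotated transcripts (-0.023). At 12 against 3 months they were Slc11a2 in TPM (-0.025) and after median-of-ratios scaling (-0.11), and Aco1 in TPM (-0.0086), after median-of-ratios scaling (-0.097) and from annotated transcripts (-0.015). At 24 against 12 months they were Aco1 from annotated transcripts (-0.0077) and Hfe in TPM (0.031). Without 1 mouse, values crossing 0 at 24 against 3 months ran from -0.15 to 0.27 for Ftl1, -0.099 to 0.065 for Slc40a1, -0.041 to 0.065 for Aco1 and -0.0012 to 0.10 for Cp. For 12 against 3 months they ran from -0.10 to 0.16 for Slc11a2 and -0.043 to 0.068 for Aco1. At 24 against 12 months they ran from -0.13 to 0.19 for Fth1, -0.53 to 0.021 for Ftl1, -0.020 to 0.15 for Ireb2, -0.029 to 0.052 for Aco1 and -0.086 to 0.026 for Hfe.

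No paired analysis was possible because the mice of different ages carry different numbers. The number of mice, 5 per age, limits the precision of every value.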
